A study of Mus musculus with 6 samples.

Results

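The genes of cholesterol synthesis, uptake and export were followed in clear cells of the mouse epididymis. Members were the rows of the deposited expression table whose gene name matched a list of 31 symbols, and 30 of them were found among the 37578 genes of the table. Hmgcs1 had no row under that name and was not analysed here. The 30 genes comprised 16 enzymes of synthesis, 5 genes that control the SREBP transcription factors, and 9 genes of LXR signalling, export, uptake, storage and intracellular transport. All 30 passed the filter on low counts.

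Clear cells are proton-secreting epithelial cells, and 3 regions of the duct in which sperm mature were sampled, caput at its start, corpus in its middle and cauda at its end. The cells were sorted for EGFP, with 2 rounds of sorting, from untreated mice aged 12 weeks that carry EGFP under the promoter of the gene for the V-ATPase subunit ATP6V1B1. All groups share this transgene, and the sort keeps any cell in which that promoter is active. There were 2 libraries per region, each a pool of 12 epididymides. Levels are given in RPKM, reads scaled by gene length and by a library size, as deposited by the authors. Fold changes are log2 ± SE from edgeR's quasi-likelihood test on the deposited read counts, with the Benjamini-Hochberg adjustment over all 15816 genes tested and a call at an adjusted p under 0.05. A negative value means lower in the region named first.

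Cells make cholesterol from acetyl-CoA through mevalonate, farnesyl diphosphate, squalene and lanosterol. When sterols in the endoplasmic reticulum are scarce, SCAP escorts SREBP proteins out of it, and the released SREBP fragment switches on the genes of synthesis. INSIG proteins hold the complex back when sterols are plentiful. LXR receptors sense oxidised sterols and switch on exporters such as ABCA1 and ABCG1. In the epididymis, sperm lose and exchange membrane cholesterol as they mature, and mice without LXR receptors are known for defects of the caput epithelium.

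Depth ranged from 18887128 to 24700717 reads in genes. The summed level of 11 clear cell markers was 1883 to 2044 RPKM in caput, 721 to 793 in corpus and 197 to 258 in cauda, and 10 of the 10 tested were higher in caput than in cauda. Car2 was highest in corpus, at 439 and 498 RPKM. Slc26a4 was listed at 0 in every corpus and cauda library and in caput 1, and no other clear cell marker was at 0 in any library. The 13 principal cell and luminal secretion markers ran the other way in sum, with 6144 to 7933 RPKM in caput, 31579.8 to 39144 in corpus and 56867 to 59415 in cauda. Crisp1 made up most of that sum in corpus and cauda, Cst8 was at 0 in 1 library of each of these regions, and 8 of the 13 markers were higher and 5 lower in caput than in cauda. Handling genes, which respond to dissociation, summed to 2614 to 2771 RPKM in caput, 2001 to 2254 in corpus and 1263 to 1325 in cauda, with 11 of 11 higher in caput than in cauda. Fos and Egr1 were highest in corpus, at means of 686 and 194 RPKM against 544 and 154 in caput. Basal cell markers summed to 64.7 to 90.3 RPKM in caput, 25.9 to 32.4 in corpus and 16.9 to 23.0 in cauda, with 7 of 7 higher in caput than in cauda. Stromal markers summed to 313 to 328 RPKM in caput, 71.4 to 76.9 in corpus and 198 to 238 in cauda, with 1 of 8 higher and 3 lower in caput than in cauda. Dcn made up most of the stromal sum, and the other 7 markers summed to 5.55 and 19.6 RPKM in caput, 26.4 to 33.9 in corpus and 29.7 to 45.5 in cauda. Sperm transcripts summed to 37.8 and 282 RPKM in caput against at most 4.14 elsewhere, and 5 of the 6 were at 0 in some library. Of these 6, 3 were higher and 0 lower in caput than in cauda. Odf1, which was not called, ran the other way, at 0.0829 and 0.568 RPKM in caput and 0.674 and 3.11 in cauda. Of all tested genes, 33.9% were higher and 33.0% lower in caput than in cauda. The marker lists differed between the same regions as the cholesterol genes, and their part in the results was not tested. In such sorted pools, fewer cells of a type and less RNA per cell cannot be told apart.

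Cholesterol synthesis enzymes were lower in caput than in cauda almost throughout the pathway. Of the 16 enzymes, 15 were lower and 1 was higher, with a median log2 fold change of -2.20, against 33.0% of all tested genes lower, 33.9% higher and a median of 0.04. The libraries of the 2 regions did not overlap for any of the 16, but the share of all genes without overlap was not counted. TMM scaling sets the bulk of genes level between regions. Scaling by library totals alone moved the median of all genes from 0.04 to 0.90 and the split of all calls from 5363 higher and 5218 lower to 9501 and 2564. It left 13 enzymes lower and 1 higher, with a median of -1.34, while Hsd17b7 turned to 0.11 and Ebp, at -0.16, was no longer called.

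The steps that lead to farnesyl diphosphate held both the steepest gradient and the exception. Fdps (ENSMUSG00000059743), which makes farnesyl diphosphate, measured 40.0 and 34.0 RPKM in caput, then 264 and 247 in corpus, reaching 413 and 357 in cauda. It was 10.9-fold lower in caput than in cauda (-3.44 ± 0.11, adjusted p = 1.27e-08), the largest fold change among the 16 enzymes. Acat2, the cytosolic thiolase that joins acetyl-CoA units at the start, was at 22.6 and 22.8 RPKM in caput, 143 and 148 in corpus and, in cauda, 129.8 and 132. Its caput level lay far below both distal levels (-2.59 ± 0.07 for caput against cauda, adjusted p = 8.69e-09). Mvd, the decarboxylase that yields isopentenyl diphosphate, rose at each region, from 6.87 and 8.82 RPKM in caput to 19.5 and 16.5 in corpus and 54.0 and 41.0 in cauda (-2.66 ± 0.18, adjusted p = 3.82e-06). Mvk, the mevalonate kinase, was at 3.64 and 3.89, 9.21 and 8.03, and 15.7 and 13.9 RPKM in the same order (-2.04 ± 0.13). Idi1, the isomerase of isopentenyl diphosphate, was the least abundant of the 16 in every library, at 0.229 to 2.01 RPKM (-2.61 ± 0.37). Pmvk, the kinase between Mvk and Mvd, went against its neighbours. It was at 30.5 and 32.6 RPKM in caput, 31.3 and 29.8 in corpus and, in cauda, 24.3 and 22.7, and was 1.29-fold higher in caput than in cauda (0.36 ± 0.09, adjusted p = 0.00726). That call was lost without cauda 2 (0.32, adjusted p = 0.0552).

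The squalene and lanosterol steps formed a regular gradient. Fdft1, the squalene synthase, was at 34.4 and 30.1 RPKM in caput, 63.2 and 56.7 in corpus and, in cauda, 84.3 and 83.0. Sqle, the squalene epoxidase and a control point of the pathway, was at 5.36 and 4.10, 12.6 and 11.7, and 23.2 and 23.0 RPKM. Lss, which closes the rings of lanosterol, was at 1.29 and 1.54, 2.73 and 2.29, and 5.32 and 4.59 RPKM. Each rose from region to region with no overlap between libraries, and for caput against cauda the log2 fold changes were -1.44 ± 0.09, -2.35 ± 0.12 and -1.87 ± 0.14 (adjusted p at most 2.49e-06). Cyp51 (ENSMUSG00000001467), the lanosterol demethylase, went from 10.5 and 9.11 RPKM in caput through 33.9 and 31.7 in corpus to 68.1 and 54.4 in cauda (-2.71 ± 0.12, adjusted p = 1.21e-07).

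The enzymes that trim lanosterol to cholesterol varied more among themselves. Nsdhl, a dehydrogenase of the demethylation complex, was at 19.1 and 16.3 RPKM in caput, 58.1 and 48.4 in corpus and, in cauda, 144 and 125, a 7.96-fold difference between the duct ends (-2.99 ± 0.12, adjusted p = 8.82e-08). Its partner in the same complex, the reductase Hsd17b7, differed by only 1.68-fold, from 4.79 and 4.67 RPKM in caput to 8.21 and 6.97 in cauda (-0.75 ± 0.12, adjusted p = 0.000477). Tm7sf2, a sterol reductase, was at 5.75 and 5.45 RPKM in caput, 38.0 and 32.3 in corpus and, in cauda, 39.6 and 32.8 (-2.76 ± 0.12). Its corpus and cauda libraries overlapped, well above caput. Ebp, the sterol isomerase, showed the flattest gradient after Pmvk and Hsd17b7, with 22.4 and 23.1, 33.8 and 34.5, and 46.3 and 41.8 RPKM (-1.02 ± 0.08). Sc5d, a sterol desaturase, was at 7.80 and 6.62, 10.1 and 7.69, and 30.9 and 21.7 RPKM (-1.93 ± 0.20), and Dhcr7, a last reductase of the pathway, at 1.67 and 1.80, 2.08 and 1.99, and 6.40 and 5.58 RPKM (-1.85 ± 0.15). Both stood high in cauda alone, and neither was called between caput and corpus except in alternatives given below.

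**Figure D1:**
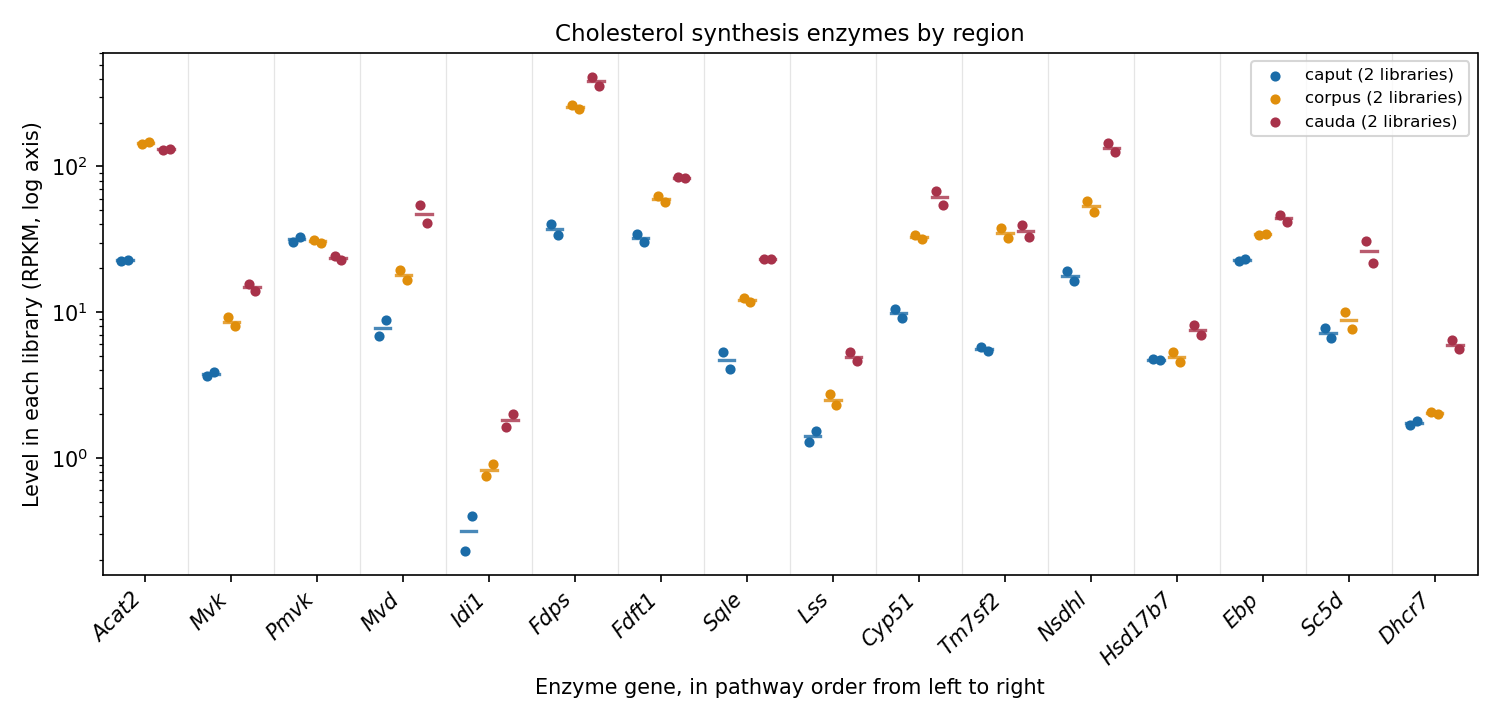
RPKM of the 16 synthesis enzymes on a log axis, in pathway order, with 1 point per library and a bar at the mean of the 2 libraries of a region. Caput points lie below cauda points for 15 enzymes, from Fdps (34.0 and 40.0 against 357 and 413 RPKM) to Hsd17b7 (4.67 and 4.79 against 6.97 and 8.21), and above them for Pmvk.

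Some values depend on how reads were assigned. Acat3, a close paralog of Acat2, was listed at 0.366 and 0.389 RPKM in caput, 3.35 and 3.35 in corpus and, in cauda, 0.261 and 0.800, so reads that fit both genes would be lost from either. In the GENCODE M21 annotation of GRCm38, exons of 8 of the 30 members overlap those of another gene, and for 6 of them that gene codes for a protein. These are Cyp51 with Akap9, Fdft1 with Ctsb, Fdps with a predicted gene, Npc1 with Rmc1, Srebf1 with Rai1 and Tm7sf2 with Vps51. The overlaps of Fdps (1124 bases, against a deposited gene length of 1223) and Tm7sf2 (532 bases) lie on the same strand. Those of the other members named lie on opposite strands, which the counts ignore. Both kinds leave the values of these members uncertain.

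The proximal promoters of the enzymes were read for motifs, since 15 of these genes moved the same way between the duct ends. The windows run from 250 bases before to 50 after the start site in the RefSeq table of GRCm38.p6. That reference held 16 promoters for 13 of the 16 enzymes, and none for Fdps, Fdft1 or Sqle. It covered the 5 SREBP control genes and 5 of the 9 transport and LXR members. A CCAAT box, the letters CCAAT on either strand and the element bound by NF-Y, which acts beside SREBP at sterol-regulated promoters, was found in 12 of those 16 promoters and for 12 of the 13 genes. It was found in 37.4% of all 32851 promoters, in 5 of 10 promoters of the SREBP control genes and in 1 of 8 of the transport and LXR members. Of the lists of other pathway genes described further on, it was in 3 of 4 promoters of synthesis genes. It was in 4 of 6 promoters of SREBP processing and degradation genes and in 5 of 10 of SREBP-1 fatty acid targets. The counts were 7 of 13 for LXR partners, targets and exporters, and 14 of 23 for uptake, transport and storage genes. The sterol regulatory element written as TCACNCCAC was in none of the members' windows and in 1.24% of all promoters, and the DR4 element known for LXR in none and in 0.0152%, both strands read. Each was searched for in a single spelling. Other forms were not searched for, so these results do not show that the promoters lack such elements. The CCAAT box was added to the search after the expression values were seen. These matches describe letters in a window and not bound sites. The promoters of Mvk, Cyp51 and Nsdhl are shown because they span from 1 to 5 CCAAT boxes among enzymes with a graded profile. Capitals mark each box, also where it reads ATTGG on the strand shown.
Mvk promoter, chr5:114444019-114444318, plus strand: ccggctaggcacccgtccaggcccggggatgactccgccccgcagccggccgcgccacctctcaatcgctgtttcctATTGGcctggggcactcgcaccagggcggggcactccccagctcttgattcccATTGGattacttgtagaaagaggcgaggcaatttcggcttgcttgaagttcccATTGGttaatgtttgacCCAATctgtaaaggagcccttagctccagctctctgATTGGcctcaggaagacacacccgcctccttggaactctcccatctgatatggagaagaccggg
Cyp51 promoter, chr5:4104648-4104947, minus strand: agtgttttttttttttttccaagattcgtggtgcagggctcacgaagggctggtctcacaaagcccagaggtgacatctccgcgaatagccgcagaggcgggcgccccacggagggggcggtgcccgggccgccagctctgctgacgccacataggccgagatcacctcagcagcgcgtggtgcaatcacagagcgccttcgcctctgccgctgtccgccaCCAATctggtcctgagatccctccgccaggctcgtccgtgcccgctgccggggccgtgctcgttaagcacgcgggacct
Nsdhl promoter, chrX:72918271-72918570, plus strand: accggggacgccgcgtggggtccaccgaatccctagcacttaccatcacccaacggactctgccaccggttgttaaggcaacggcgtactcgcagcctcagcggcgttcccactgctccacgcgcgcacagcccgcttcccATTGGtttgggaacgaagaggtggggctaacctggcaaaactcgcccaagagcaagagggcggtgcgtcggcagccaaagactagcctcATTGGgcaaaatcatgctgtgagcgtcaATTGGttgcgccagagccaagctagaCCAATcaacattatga
Mvk held 5 boxes, Nsdhl 4 and Cyp51 1, while their log2 fold changes for caput against cauda were -2.04, -2.99 and -2.71. Pmvk, the enzyme that was higher in caput, held a box in 1 of its 2 promoters.

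Fewer enzymes were called between caput and corpus. Of the 16, 12 were lower in caput than in corpus, 0 were higher and 4 were not called, with a median of -1.26, against 31.8% of all genes lower, 33.2% higher and 65.0% called in all. The 5246 higher and 5029 lower genes became 8438 and 2972 under library totals. Fdps was 7.21-fold lower (-2.85 ± 0.11, adjusted p = 5.52e-08), Acat2 6.68-fold (-2.74 ± 0.07, adjusted p = 1.70e-08) and Tm7sf2 6.54-fold (-2.71 ± 0.12, adjusted p = 1.27e-07). The enzymes without a call were Pmvk (-0.01 ± 0.09), Hsd17b7 (-0.12 ± 0.12), Sc5d (-0.36 ± 0.20) and Dhcr7 (-0.29 ± 0.15). With that scaling 9 enzymes were lower and 2 higher, and both Pmvk (0.58, adjusted p = 0.000513) and Hsd17b7 (0.47, adjusted p = 0.00864) turned higher in caput. Pmvk also turned higher once the trend with gene length was removed (0.47, adjusted p = 0.00132). That removal left Hsd17b7 (-0.42, adjusted p = 0.0107) and Dhcr7 (-0.49, adjusted p = 0.0172) called lower in caput. Hsd17b7 was thus called in opposite directions by these 2 settings.

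Between corpus and cauda 13 enzymes were lower in corpus, 1 was higher and 2 were not called, with a median of -0.85. The share of all genes called was smaller here, with 18.0% lower and 17.3% higher and 35.4% in all (2850 and 2742 genes, or 1735 and 5154 under library totals). Sc5d (-1.57 ± 0.20, adjusted p = 0.000852), Dhcr7 (-1.56 ± 0.15, adjusted p = 4.97e-05), Mvd (-1.41 ± 0.17) and Nsdhl (-1.34 ± 0.12) had the largest differences. The enzyme that was higher in corpus was Pmvk (0.37 ± 0.10), a call lost without corpus 1 (0.35, adjusted p = 0.0758) or cauda 2 (0.33, adjusted p = 0.0944). Acat2 (0.15) and Tm7sf2 (-0.05) were not called. Idi1 (-1.14, adjusted p = 0.0322) rested on few reads and lost its call without any single corpus or cauda library (adjusted p from 0.0851 to 0.188), with DESeq2 (0.0529) and under library totals (0.0809). Ebp (-0.37) lost its call without corpus 1 (adjusted p = 0.0679) or cauda 1 (adjusted p = 0.0706).

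The 3 comparisons share libraries, so their values are set side by side and not counted as separate support. Whether a gene's step from caput to corpus differed from its step from corpus to cauda was tested directly, as the contrast of corpus with the mean of both ends, a test added after the values were seen. The steps differed for 13 of the 30 members, a share near the 48.1% of all genes in which they did. In 7 members corpus lay above the mean of the ends and in 6 below it, against 24.8% and 23.3% of all genes. Acat2 took its step before the corpus, with 2.74 against -0.15 (difference 2.89 ± 0.12, adjusted p = 2.85e-07). So did Tm7sf2, with 2.71 against 0.05 (difference 2.66 ± 0.19, adjusted p = 5.33e-06), and Fdps, with 2.85 against 0.59 (difference 2.25 ± 0.17, adjusted p = 6.17e-06). Cyp51 had the larger first step too, with 1.80 against 0.90 (adjusted p = 0.00477), a call lost without corpus 1 (adjusted p = 0.0573). Dhcr7 took its step after the corpus, with 0.29 against 1.56 (difference -1.27 ± 0.27, adjusted p = 0.00351). Sc5d did likewise, with 0.36 against 1.57 (adjusted p = 0.0257), but lost the call without caput 1 (0.075), without corpus 2 (0.194) and with no filter on low counts (0.0547). Fdft1 (adjusted p = 0.026) lost its call in 7 alternatives, among them library totals and the omission of caput 2, corpus 1, cauda 1 or cauda 2 (adjusted p from 0.0615 to 0.434). Mvd and Lss gave no call, at -0.15 ± 0.31 and -0.11 ± 0.24.

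**Figure D2:**
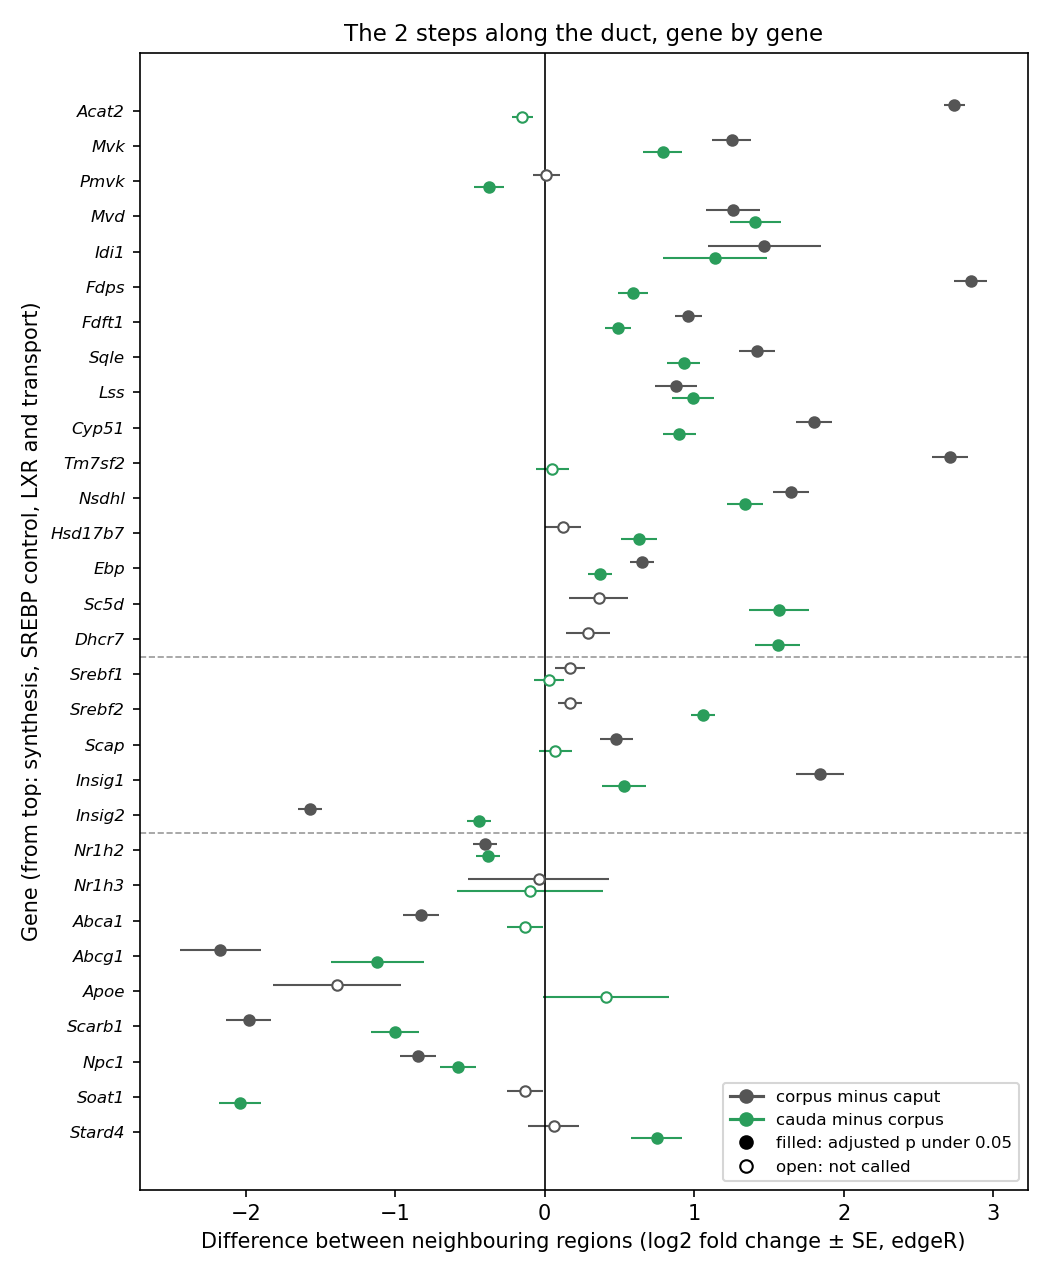
Log2 fold change ± SE from caput to corpus (grey) and from corpus to cauda (green) for the 30 members, positive where the more distal region is higher; filled points passed an adjusted p of 0.05, and both steps share the corpus libraries. The early steps of Acat2 (2.74), Fdps (2.85) and Tm7sf2 (2.71) and the late steps of Sc5d (1.57), Dhcr7 (1.56), Srebf2 (1.06) and Soat1 (-2.04) stand out.

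Genes that control SREBP did not move as a block, and the 2 INSIG genes moved in opposite directions. Between caput and cauda 3 of the 5 were lower in caput, 1 was higher and 1 was not called, with 66.9% of all genes called in either direction. Insig1 (ENSMUSG00000045294), which retains SCAP and is itself switched on by SREBP, was at 4.42 and 4.11 RPKM in caput, 16.2 and 13.0 in corpus and, in cauda, 23.8 and 18.3. It thus rose distally like the enzymes (-2.37 ± 0.16 for caput against cauda, adjusted p = 1.28e-06). Insig2, which also retains SCAP but is not an SREBP target, was at 38.5 and 38.5 RPKM in caput, 12.1 and 12.8 in corpus and, in cauda, 9.17 and 9.17 (2.00 ± 0.08, adjusted p = 5.00e-08). Per length, Insig2 stood above Insig1 in both caput libraries and below it in every corpus and cauda library. For caput against corpus both were called, at -1.84 ± 0.16 for Insig1 and 1.57 ± 0.08 for Insig2. For corpus against cauda the differences were smaller, at -0.53 ± 0.15 and 0.44 ± 0.08. The Insig1 call in that comparison was lost without corpus 2 (-0.38, adjusted p = 0.173), without cauda 1 (-0.33, adjusted p = 0.203) and under library totals (-0.26, adjusted p = 0.21).

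The SREBP genes themselves differed from each other. Srebf2, which encodes the SREBP form that mainly drives cholesterol synthesis, was at 23.5 and 21.6 RPKM in caput, 25.1 and 23.5 in corpus and, in cauda, 51.7 and 49.8. The caput libraries lay just below the corpus libraries and the 2 regions were not called apart (-0.17 ± 0.08, adjusted p = 0.0802), while cauda was 2.35-fold above caput (-1.23 ± 0.08, adjusted p = 7.01e-07). Its step fell after the corpus (0.17 against 1.06, difference -0.89 ± 0.14, adjusted p = 0.00059). Once the trend with gene length was removed, Srebf2 was called lower in caput than in corpus (-0.32, adjusted p = 0.00368). Srebf1, whose SREBP form mainly drives fatty acid synthesis, was at 37.1 and 30.7, 38.1 and 34.9, and 38.8 and 35.3 RPKM. Its regions overlapped and no comparison was called (-0.19 ± 0.10 for caput against cauda, adjusted p = 0.113), but without caput 1 it was lower in caput than in cauda (-0.32, adjusted p = 0.0254) and than in corpus (-0.29, adjusted p = 0.0375). With the gene length trend removed it was also lower in caput (-0.51, adjusted p = 0.000578, and -0.46, adjusted p = 0.00112). Scap, the SREBP escort, was at 9.30 and 8.03, 12.6 and 10.7, and 12.5 and 11.8 RPKM, lower in caput than in cauda (-0.55 ± 0.11, adjusted p = 0.00148) and than in corpus (-0.48 ± 0.11, adjusted p = 0.0033). These readings are relative to the bulk of genes. Under library totals Srebf1 was higher in caput than in cauda (0.67, adjusted p = 0.000185) and than in corpus (0.42, adjusted p = 0.00369), Scap turned to 0.31 (adjusted p = 0.0303) and 0.10 (adjusted p = 0.426), and Srebf2 turned to 0.42 (adjusted p = 0.00124) for caput against corpus.

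Genes of LXR signalling, export, uptake and storage ran mostly opposite to synthesis. Of the 9, 6 were higher in caput than in cauda, 1 was lower and 2 were not called, with a median of 0.97, against 33.9% of all genes higher. For caput against corpus 5 were higher and 4 not called, against 33.2%. Under library totals 8 were higher, but so were 8438 of all 15816 genes, up from 5246. For corpus against cauda, where 17.3% of all genes were higher and 18.0% lower, 5 were higher, 1 lower and 3 not called. Clear cell markers were higher in caput as well, by the sums given above.

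Both exporters named for LXR were most abundant in caput. Abcg1, which passes cholesterol to lipoprotein particles, was at 4.45 and 3.92 RPKM in caput, 0.629 and 1.15 in corpus and, in cauda, 0.457 and 0.363. It was 9.74-fold higher in caput than in cauda (3.28 ± 0.29, adjusted p = 7.84e-06). Its smaller excess in corpus over cauda (1.12 ± 0.31, adjusted p = 0.0206) was lost without corpus 2 (0.61, adjusted p = 0.171), cauda 1 (1.29, adjusted p = 0.0682) or cauda 2 (0.96, adjusted p = 0.144). Abca1, which loads lipid onto apolipoproteins, was at 6.61 and 5.27 RPKM in caput, 3.36 and 3.04 in corpus and, in cauda, 2.90 and 2.94 (0.96 ± 0.12 for caput against cauda, adjusted p = 7.73e-05). Corpus and cauda were not called apart (0.13 ± 0.12). Apoe, an apolipoprotein that accepts exported lipid, was the most abundant of the 9 in every library. It was at 358 and 497 RPKM in caput, 196 and 118 in corpus and, in cauda, 261 and 156. The caput libraries lay above all others, but no comparison was called (0.97 ± 0.42 for caput against cauda, adjusted p = 0.115, and 1.39 ± 0.43 for caput against corpus, adjusted p = 0.051). Under library totals both were called higher in caput (1.84, adjusted p = 0.0194, and 1.97, adjusted p = 0.0169). Caput against corpus was also called with DESeq2 (1.40, adjusted p = 0.00535) and without corpus 1, cauda 1 or cauda 2 (adjusted p from 0.0385 to 0.0477). Macrophages also express Apoe. Their 12 markers summed to 10.6 to 18.8 RPKM in caput, at most 13.6 in corpus and 8.17 to 12.8 in cauda, and none was at 0 in any library. Of the 11 tested, 3 were higher and 1 lower in caput than in cauda, against 33.9% and 33.0% of all genes. Caput 1 had the higher marker sum and the lower Apoe of its pair, while in corpus and cauda the library with the higher sum had the higher Apoe. Their part in the Apoe level was not tested.

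The 2 LXR genes were expressed at very different levels. Nr1h2, which encodes the widely expressed LXR beta, was at 53.8 and 50.2 RPKM in caput, 38.5 and 37.0 in corpus and, in cauda, 27.7 and 30.1. It fell at each step by a small amount (0.40 ± 0.08, adjusted p = 0.0014, and 0.38 ± 0.08, adjusted p = 0.00435), 1.72-fold in all. Nr1h3, which encodes LXR alpha, was at 0.241 to 0.452 RPKM over the 6 libraries. Its regions overlapped and no comparison was called, with an SE of 0.48 for caput against cauda.

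**Figure D3:**
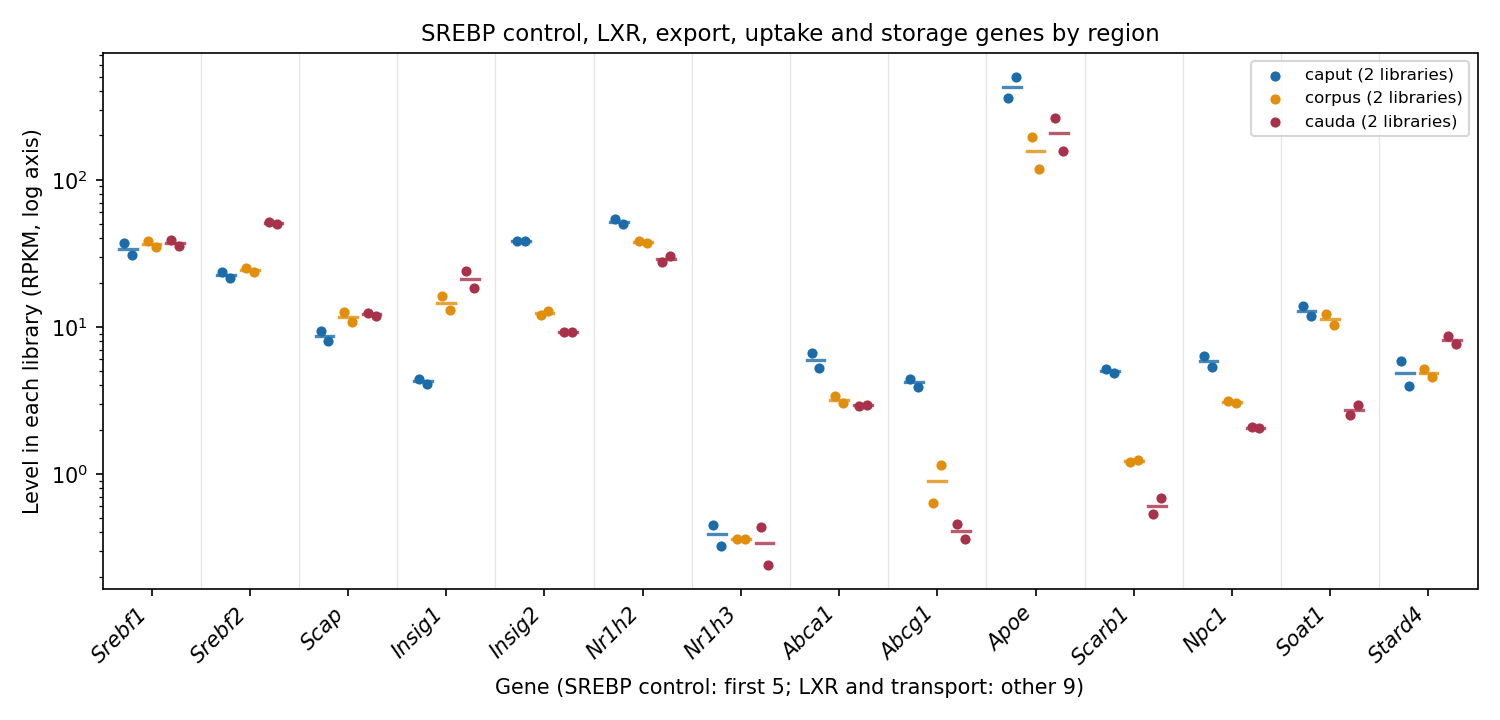
RPKM of the 5 SREBP control genes and the 9 LXR and transport genes on a log axis, with 1 point per library and a bar at the mean of the 2 libraries of a region. Insig1 rises from caput (4.11 and 4.42) to cauda (18.3 and 23.8) while Insig2, Abcg1, Scarb1 and Npc1 fall, and the Srebf1 and Nr1h3 points overlap.

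Scarb1 and Npc1 fell along the duct. Scarb1 (ENSMUSG00000037936), the scavenger receptor that takes up cholesteryl ester from lipoproteins, was at 5.14 and 4.88 RPKM in caput, 1.20 and 1.24 in corpus and, in cauda, 0.534 and 0.680. That made it 7.87-fold higher in caput than in cauda (2.98 ± 0.16, adjusted p = 2.30e-07) and 2.00-fold higher in corpus than in cauda (1.00 ± 0.16, adjusted p = 0.00128). Npc1, which moves cholesterol out of late endosomes and lysosomes, was at 6.32 and 5.37 RPKM in caput, 3.15 and 3.05 in corpus and, in cauda, 2.08 and 2.04. It fell with no overlap at either step (0.85 ± 0.12, adjusted p = 0.000146, and 0.58 ± 0.12, adjusted p = 0.00472).

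Soat1 and Stard4 were called between corpus and cauda and not between caput and corpus. Soat1, which esterifies cholesterol for storage, was at 13.9 and 11.8 RPKM in caput, 12.2 and 10.3 in corpus and, in cauda, 2.50 and 2.96. Caput and corpus overlapped (0.13 ± 0.12, not called, but 0.71, adjusted p = 0.000818, under library totals), and corpus was 4.11-fold above cauda (2.04 ± 0.14, adjusted p = 5.44e-06). The steps differed by 1.91 ± 0.22 (adjusted p = 8.79e-05). Stard4, a cytosolic sterol carrier and a known SREBP target, was the member of this group that was higher in cauda, at 5.83 and 3.94, 5.16 and 4.59, and 8.70 and 7.61 RPKM. Its log2 fold change was -0.80 ± 0.17 for caput against cauda (adjusted p = 0.0031), which became 0.05 (adjusted p = 0.783) under library totals, and for caput against corpus that scaling turned -0.06 to 0.53 (adjusted p = 0.0204). Its call for corpus against cauda (-0.75 ± 0.17, adjusted p = 0.0105) was lost without corpus 1, corpus 2 or cauda 1 (adjusted p from 0.0572 to 0.0993), and its step difference was not called (adjusted p = 0.0964).

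The other genes of synthesis were mixed. Of 7 further genes, 3 were lower and 2 higher in caput than in cauda, and 2 lower and 4 higher in caput than in corpus. Between corpus and cauda 5 were lower and 0 higher in corpus. Of all genes, 66.9%, 65.0% and 35.4% were called in these comparisons, in that order. Msmo1, the sterol oxidase that works with Nsdhl and Hsd17b7 and is listed under its older name Sc4mol, was at 8.65 and 8.63 RPKM in caput, 30.6 and 30.4 in corpus and, in cauda, 61.3 and 56.3 (-2.83 ± 0.08 for caput against cauda, adjusted p = 7.29e-09). Pgrmc1, a haem-binding partner of Cyp51, was at 836 and 802 RPKM in caput, 285 and 307 in corpus and, in cauda, 496 and 511 (0.64 ± 0.08 for caput against cauda, adjusted p = 5.84e-05).

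Further genes of SREBP processing and sterol-regulated degradation moved in both directions. Of 8 measured, 2 were higher and 2 lower in caput than in cauda, and 3 higher and 3 lower in caput than in corpus. Between corpus and cauda 1 was higher and 3 were lower in corpus. Of all genes, 66.9%, 65.0% and 35.4% were called in either direction in these comparisons, in that order. Erlin1 and Syvn1, which take part in degradation at the endoplasmic reticulum, were lower in caput than in cauda, at -1.24 ± 0.13 and -0.97 ± 0.12 (adjusted p at most 7.12e-05). Erlin2, the partner of Erlin1, was higher in caput at 0.56 ± 0.09.

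Fatty acid genes known as SREBP-1 targets moved in both directions. Of 11, 5 were lower and 4 higher in caput than in cauda, 7 lower and 2 higher in caput than in corpus, and 2 lower and 4 higher in corpus than in cauda, where 66.9%, 65.0% and 35.4% of all genes were called. Acly, which supplies cytosolic acetyl-CoA to both pathways, was at 37.1 and 33.3 RPKM in caput, a mean of 53.0 in corpus and, in cauda, 111 and 118 (-1.77 ± 0.09, adjusted p = 1.53e-07). The desaturases Scd1 and Fads2 were 6.39-fold and 4.03-fold lower in caput than in cauda (-2.68 ± 0.15 and -2.01 ± 0.10). Fads1, another desaturase, peaked in corpus, at 69.8 and 68.3 RPKM against 32.5 and 28.8 in caput and 26.4 and 20.4 in cauda (1.56 ± 0.12 for corpus against cauda, adjusted p = 1.73e-05).

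Among 12 further LXR partners, targets and exporters, 7 passed the filter on low counts and Abcg4, Abcg5, Abcg8, Apoa1 and Lcat did not, at most 0.183 RPKM in any library. Of the 7, 3 were higher and 1 lower in caput than in cauda, 2 higher and 0 lower in caput than in corpus, and 2 higher and 1 lower in corpus than in cauda, where 66.9%, 65.0% and 35.4% of all genes were called in either direction. Lpcat3, a phospholipid acyltransferase and LXR target, was at 37.7 and 34.0 RPKM in caput, 23.9 and 27.7 in corpus and, in cauda, 13.7 and 14.7 (1.27 ± 0.10, adjusted p = 2.82e-06). Abca7, a relative of Abca1, fell from 2.60 and 2.03 RPKM in caput to 0.358 and 0.312 in cauda (2.72 ± 0.22, adjusted p = 4.27e-06). Rxra, which encodes a partner receptor of LXR, ran the other way and was highest in cauda, at 4.09 and 4.66 RPKM against 2.19 and 1.77 in caput (-1.21 ± 0.16, adjusted p = 0.000129).

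The 23 further genes of uptake, transport and storage included the largest fold changes of the survey. Of them, 10 were higher and 6 lower in caput than in cauda, 11 higher and 8 lower in caput than in corpus, and 7 higher and 5 lower in corpus than in cauda. The 16 called of 23 between caput and cauda are near the 66.9% of all genes. For caput against corpus and corpus against cauda, 65.0% and 35.4% of all genes were called. Ch25h, which oxidises cholesterol to an oxysterol that restrains SREBP, was at 10.5 and 7.48 RPKM in caput, 152 and 163 in corpus and, in cauda, 345 and 314. It was 38.3-fold lower in caput than in cauda (-5.26 ± 0.15, adjusted p = 2.43e-08). Lrp2, the endocytic receptor megalin, rose from 1.39 and 1.12 RPKM in caput through 7.63 and 7.43 to 20.8 and 21.4 in cauda (-4.14 ± 0.11, adjusted p = 5.08e-09).

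Npc2 and Lipa were highest in corpus. Npc2, which hands cholesterol to Npc1 and is also secreted into the epididymal lumen, was at 239 and 202 RPKM in caput, 2173 and 2416 in corpus and, in cauda, 523 and 499 (-3.44 ± 0.11 for caput against corpus, adjusted p = 2.51e-08). Lipa, the lysosomal acid lipase that frees cholesterol from its esters, was at 6.82 and 5.59, 29.9 and 31.0, and 5.45 and 5.75 RPKM in the same order (2.44 ± 0.12 for corpus against cauda, adjusted p = 7.35e-07). Npc1 itself, described above, was highest in caput.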

How the data were processed

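RNA of sorted clear cells was sequenced in 6 libraries. STAR, HTSeq and edgeR and the build mm9 are listed in the submitters' processing notes, and the sources used here give no versions or annotation. The authors deposited read counts per gene, made without regard to strand as their names state, and RPKM values with gene lengths (unit "other"). The deposited RPKM equal counts over length and library size times a factor between 0.774 and 1.387. The TMM factors ran from 0.761 to 1.415, and both kinds were highest in caput and lowest in cauda. The RPKM levels therefore already hold a scaling close to TMM. Records outside any gene (6.67% to 9.48%), ambiguous (1.39% to 1.83%) or not unique (33.11% to 38.59%) stayed out of all fits.

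Counts were fitted with edgeR 4.0.16 (R 4.3.3), using filterByExpr, TMM scaling, robust dispersions and two-sided quasi-likelihood tests, with region as the factor and every library in the fit. The SE is the absolute log2 fold change over the square root of F, and is approximate. The procedure was tested on simulated data with known changes. Alternatives were DESeq2 1.42.0, limma 3.58.1 on log2(RPKM + 1) and log2(RPKM + 0.1), other scalings, samples and filters, the replicate number as a block, and removal of the gene length trend (lowess span 0.3). The members and lists were chosen with earlier results of these data known. From each other list, up to 3 called genes with the smallest adjusted p per comparison could be named, and some of these are not reported here. No label states that both pools of a region came from separate mice, and p-values then reflect the spread among these libraries only, which may be technical. Replicates differed by more than sampling noise (chi-square per degree of freedom 9.57 to 17.18).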

Additional observations from a re-analysis of the deposited data

How the results depend on the processing

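Under library totals the calls between caput and cauda became 9501 higher and 2564 lower over all genes, with 3 SREBP control genes higher and 0 transport and LXR genes lower. Between caput and corpus they became 8438 and 2972, with 2 enzymes higher, 3 SREBP control genes higher and 1 lower, and 8 transport and LXR genes higher. Between corpus and cauda they became 5154 and 1735, with 2 enzymes higher, 1 SREBP control gene lower and 0 transport and LXR genes lower. The same scaling reversed, for caput against cauda, Hsd17b7 (0.11), Srebf1 (0.67), Scap (0.31) and Stard4 (0.05). For caput against corpus it reversed Pmvk (0.58), Hsd17b7 (0.47), Srebf1 (0.42), Srebf2 (0.42), Scap (0.10) and Stard4 (0.53). With the gene length trend removed, caput against corpus had 1 enzyme higher and 4 SREBP control genes lower, and Pmvk reversed to 0.47. Over all genes 5202 were then higher and 4710 lower. The cause of these changes was not tested.

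The labels do not say that replicate numbers pair the libraries. Differences between replicates 1 and 2 correlated across genes at 0.13 to 0.19 between regions. With the replicate block, 17 members had unequal steps instead of 13, and of all 15816 genes 8080 did instead of 7607. Between caput and corpus 13 enzymes were lower, Sc5d being added (-0.35, adjusted p = 0.0116). Of all genes, 5196 were lower there instead of 5029. With this block Srebf1 was called lower in caput than in cauda (-0.20, adjusted p = 0.0352). With the block and the length trend removed, caput against corpus had 1 enzyme higher, 4 SREBP control genes lower, 1 transport and LXR gene lower and Pmvk at 0.47. Over all genes 5330 were higher and 4852 lower. Corpus against cauda had 2 enzymes higher, with 3223 of all genes higher.

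With 1 library left out in turn, enzymes higher in caput than in cauda numbered 0 to 1. For corpus against cauda the counts were 0 to 1 enzymes higher, 1 to 2 SREBP control genes lower, 0 to 1 transport and LXR genes lower and 1856 to 3096 of all genes lower, and unequal steps were called for 9 to 13 members. With 1 library left in a region, that library is assumed to vary like the others. Fits on the 4 libraries of a comparison alone could not be made for the unequal steps. With 2 libraries a region, few reads limit Idi1, Nr1h3 and Abcg1.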
